A study of Mus musculus with 9 samples.

Results

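The primary neutrophil granule genes described here are 10 genes taken by name, Mpo, Elane, Prtn3, Ctsg, Ms4a3, Serpinb1a, Lyz2, Nkg7, Gstm1 and Srgn, out of 37980 genes in the expression table. No cut-off on measured values picked them, but earlier results of these data were known when they were chosen. All 10 passed the expression filter, which kept 11953 genes. RNA was sequenced from myeloid progenitors (MPs, Lin-c-kit+Sca1-) of the bone marrow of C57BL/6 mice, 100000 sorted cells per sample. The 4 NA MP samples were Tdtomato+ donor-derived cells from irradiated recipients of multipotent progenitors (MPPs) that carried the Nup98-Hoxa10hd fusion gene (NA), which joins part of the nuclear pore protein NUP98 to the homeodomain of HOXA10. The 5 WT MP samples were sorted as CD45.2+ from control mice that had been given WT MPPs, at the same time point. NA was expressed from the Rosa26 locus once switched on by Vav-Cre, which acts in blood cells, and the donor cells of both groups were injected with helper marrow cells. The text of the methods describes recipients as CD45.2+ and WT donor cells as CD45.1+, so the origin of the WT MPs, be it the donor, the helper marrow or the host, cannot be told apart here. The labels place the sort at 3 months post transplantation, while the methods give a later month. Whether a sample is a single mouse is not stated, and the p-values measure only the spread between these samples.

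Primary (azurophil) granules are the first granules a neutrophil precursor makes, at the promyelocyte stage, and the RNA of their proteins is transcribed mainly in that window. They are related to lysosomes and hold a haem peroxidase, a family of serine proteases that arrive as inactive zymogens, and lysozyme, all packed on an acidic proteoglycan. The transcription factors C/EBPα, PU.1, MYB, RUNX1 and LEF1 are known to act on the promoters of the peroxidase and elastase genes, and a cytosolic serpin protects the cell from proteases that leak out of the granules.

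Sequencing depth was between 5557718 and 8106141 counts per sample after the authors' scaling was undone. Samples of a group differed by more than counting error. The chi-square of their counts was 1.63 to 2.83 per degree of freedom for pairs of NA MPs and 1.2 to 1.71 for pairs of WT MPs. The common coefficient of variation beyond counting error, as fitted by edgeR, was small, at 3.49%. These values do not show whether the samples came from separate mice. Both genes of the fusion were higher in the NA MPs. Nup98 stood at a normalized count of 967 ± 83.3 (SD, n = 4) against 603 ± 30.1 (SD, n = 5) in the WT MPs, Hoxa10 at 130 ± 17.9 against 8.10 ± 2.58, and Hoxa9, a gene next to Hoxa10, at 668 ± 46 against 162 ± 13.9. By level per exon length, Mpo ranked 4 among all genes in this sort, and the other granule genes ranked from 6 (Elane) to 250 (Serpinb1a). Abundance alone does not test their label as granule genes of early myeloid cells.

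In NA MPs, 9 of the 10 granule genes were higher than in WT MPs by edgeR's quasi-likelihood test at a Benjamini-Hochberg adjusted p under 0.05, and 0 were lower. Over all tested genes 34.1% passed this test, 17.9% as higher and 16.3% as lower. The changes were small. The median log2 fold change of the 10 genes was 0.16, against -0.00104 over all tested genes, and 0 of them changed 2-fold. Lyz2 rose 1.46-fold and Srgn 1.25-fold, Prtn3, Ctsg, Nkg7, Serpinb1a and Ms4a3 rose by 0.12 to 0.20 on the log2 scale, and Elane and Mpo by less than 0.10. Gstm1 did not pass the test. The values of the 4 NA MP samples all lay above those of the 5 WT MP samples for 7 of the 10 genes, against 14.2% of tested genes (and 12.2% with all NA MP samples below). Counting a gene only where the change was tested to exceed 1.2-fold left 2 of the 10, Lyz2 and Srgn, and 5.66% of all tested genes as higher. In bulk samples such as these, more cells of a type and more RNA per cell cannot be told apart.

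**Figure D1:**
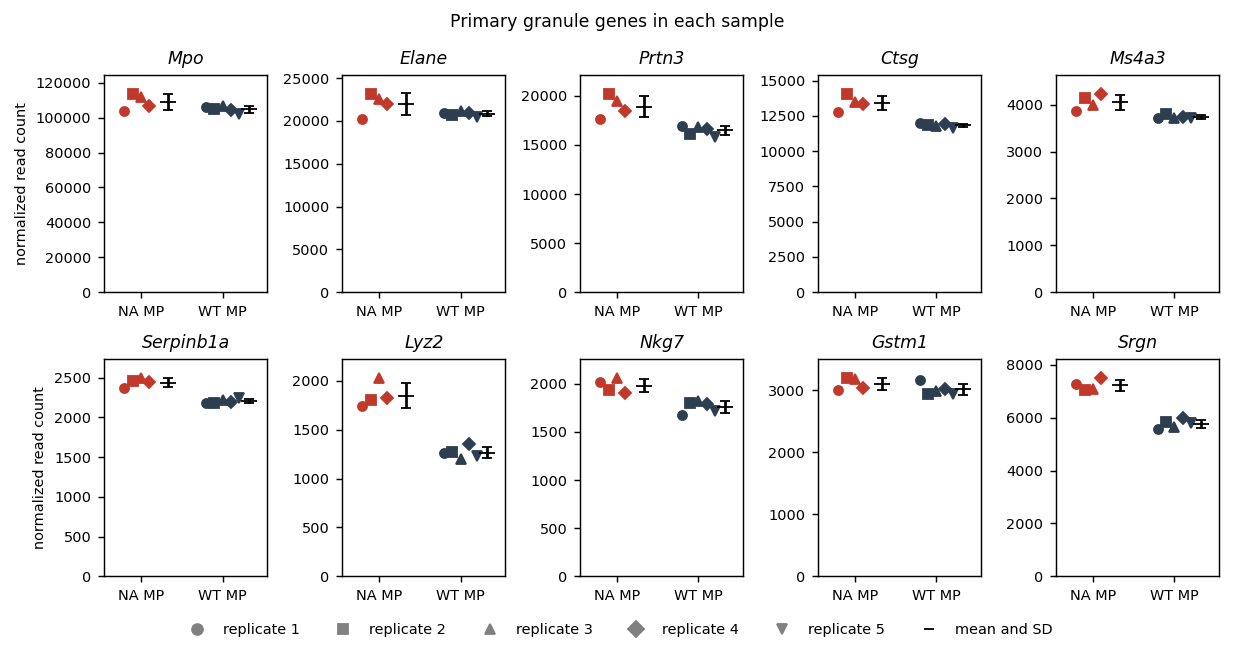
Normalized read counts of the 10 granule genes (vertical axes, each from 0) in the NA MP samples (red) and the WT MP samples (dark), 1 marker shape per replicate number, with the mean and SD to the right of each group. Lyz2 and Srgn show the widest gaps between the groups, while the points of Mpo, Elane and Gstm1 overlap.

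Mpo encodes myeloperoxidase, the haem enzyme that makes hypochlorous acid in the granule (chr11:87793581-87804413 of GRCm38, plus strand, 15 merged exons). It alone took between 1.53% and 1.68% of all counts of a sample. Its normalized counts were 103678, 113320, 111915 and 106711 in NA MPs and 106068, 104669, 106409, 104224 and 101941 in WT MPs. NA MP replicate 1 lay within the WT MP range and the other NA MP samples lay above it, so the groups overlapped. The means were 108906 ± 4500 (SD, n = 4) and 104662 ± 1780 (SD, n = 5), a log2 fold change of 0.06 ± 0.0217 (SE) with an edgeR adjusted p of 0.0355. This call was fragile. DESeq2 gave an adjusted p of 0.129 and limma on the log2 of the deposited values 0.175, and a correction for the GC content and length of genes brought the log2 fold change to 0.00285. Without NA MP replicate 2 or 3, or WT MP replicate 2, 4 or 5, the call was lost, with adjusted p up to 0.223. Mpo shares exon bases with Gm11505, an antisense gene, and whether the counting used strand is not given.

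Elane, Prtn3 and Ctsg encode the granule serine proteases neutrophil elastase, proteinase 3 and cathepsin G. Elane (chr10:79886247-79888215, plus strand) and Prtn3 (chr10:79874476-79883174, plus strand) stand in tandem with 3072 bases between them, and Ctsg (chr14:56099881-56102574, minus strand) lies in the mast cell protease and granzyme cluster. The stretches upstream of these genes and of Mpo are shown because their RNA levels moved together from sample to sample. Each begins 250 bases before the RefSeq start (GRCm38.p6, RefSeq sequence) and ends before the first base of an annotated exon, 5′ to 3′ on the strand of the gene. Capitals mark matches on either strand to 5 letter patterns known as cores of factor motifs. They are AACNG for the factor MYB, GAGGAA for Ets factors such as PU.1, TGTGGT for the RUNX factors, TTNNGNAA for the C/EBP factors and AGATAA for the GATA factors.
Mpo upstream stretch, chr11:87793534-87793580, plus strand: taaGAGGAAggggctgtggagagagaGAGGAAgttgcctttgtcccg
Elane upstream stretch, chr10:79886062-79886246, plus strand: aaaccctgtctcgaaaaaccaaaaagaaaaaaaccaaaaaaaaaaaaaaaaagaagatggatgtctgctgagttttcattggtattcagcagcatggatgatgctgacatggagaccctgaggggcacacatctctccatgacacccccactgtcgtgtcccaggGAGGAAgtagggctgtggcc
Prtn3 upstream stretch, chr10:79879417-79879613, plus strand: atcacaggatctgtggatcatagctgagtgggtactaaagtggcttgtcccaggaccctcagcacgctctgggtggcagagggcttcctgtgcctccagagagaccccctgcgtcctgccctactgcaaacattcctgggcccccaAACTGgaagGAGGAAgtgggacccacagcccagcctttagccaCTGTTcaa
Ctsg upstream stretch, chr14:56102575-56102824, minus strand: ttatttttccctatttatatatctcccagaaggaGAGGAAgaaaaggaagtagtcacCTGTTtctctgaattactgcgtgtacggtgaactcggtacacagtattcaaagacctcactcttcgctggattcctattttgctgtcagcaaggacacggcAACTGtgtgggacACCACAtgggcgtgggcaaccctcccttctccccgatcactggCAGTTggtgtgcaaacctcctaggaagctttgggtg

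The letters GAGGAA stood on the gene's own strand in the 250 bases before the start of all 4 of these genes, beginning 247 and 224 bases before the start in Mpo, 95 in Prtn3, 85 in Elane and 216 in Ctsg. They were found on either strand before 4 of the 9 granule genes with a RefSeq promoter sequence, these 4, and before 23.3% of 32851 promoters of the same length. Gstm1, whose RNA moved with that of these 4, did not have them. AACNG stood before 8 of the 9 and 74.2% of all, TGTGGT before 3 and 14.0%, TTNNGNAA before 2 (Lyz2 and Ms4a3) and 36.8%, and AGATAA before 0 and 9.99%, with the first listed start used for Gstm1 and Srgn. With the other start of Srgn counted as well, TGTGGT stood before 4 of the 9 and TTNNGNAA before 3. These are matches of letters, not binding sites. The Prtn3 stretch lies within an intron of a longer annotated Prtn3 transcript. Serpinb1a is named only.

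Elane had normalized counts of 20203, 23107, 22588 and 21957 in NA MPs and 20959, 20637, 21206, 20971 and 20473 in WT MPs. NA MP replicate 1 was the lowest of all 9 samples and the other NA MP samples were the 3 highest. The log2 fold change was 0.08 ± 0.0271 (SE) with an edgeR adjusted p of 0.0303, and like that of Mpo it did not pass with DESeq2 (adjusted p 0.0747) or limma (0.137). With the correction for GC content and length its sign turned, to -0.05. Leaving out NA MP replicate 2, 3 or 4 or WT MP replicate 1, 2 or 5 also ended the call, with adjusted p up to 0.151.

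Prtn3 counts were 17635, 20150, 19427 and 18421 in NA MPs and 16968, 16139, 16852, 16619 and 15808 in WT MPs, so that all NA MP samples were above all WT MP samples. The means were 18908 ± 1110 (SD, n = 4) and 16477 ± 491 (SD, n = 5), with a log2 fold change of 0.20 ± 0.0321 (SE) and an edgeR adjusted p of 6.06e-05. The difference kept its call with every sample left out in turn, but the GC and length correction reduced it to 0.06 with an adjusted p of 0.053. Prtn3 has the highest GC content of the 10 genes (61.2% over its exons). It also shares exon bases with Plppr3, on the opposite strand, which had normalized counts of 2128 in NA MPs and 1794 in WT MPs (log2 fold change 0.25), and the share of reads exchanged between them was not tested.

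Ctsg counts were 12780, 14025, 13449 and 13347 in NA MPs and 11968, 11844, 11788, 11891 and 11664 in WT MPs. The groups did not overlap, and the WT MP samples lay close together, with a coefficient of variation below that of NA MPs. The log2 fold change was 0.18 ± 0.024 (SE) with an edgeR adjusted p of 2.09e-08, and 0.12 after the GC and length correction (adjusted p 3.9e-06). Of Mpo and the 3 serine proteases, Ctsg was the gene whose rise passed the test under each alternative other than the 1.2-fold test.

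Lyz2 encodes lysozyme M, which cuts bacterial cell walls and is also made by monocytes and macrophages. It showed the largest change of the 10 genes. Its counts were 1738, 1807, 2025 and 1828 in NA MPs and 1263, 1273, 1204, 1358 and 1229 in WT MPs, with a wide gap between the groups. The means were 1849 ± 123 (SD, n = 4) and 1265 ± 58.5 (SD, n = 5), a log2 fold change of 0.55 ± 0.0379 (SE) with an edgeR adjusted p of 4.85e-15. Over 22 alternatives it stayed between 0.50 and 0.57 and passed the test in each. Lyz1, its tandem copy 5475 bases away and expressed by gut Paneth cells, had 9 counts over the 9 samples. Of 13 tested monocyte and macrophage markers 9 were higher and 2 lower in NA MPs (median 0.54), with a summed normalized count of 6770 to 7690 in NA MPs and 6200 to 6570 in WT MPs and no listed marker at 0 counts. C1qc, C1qa and Mrc1, genes of tissue macrophages, rose by 2.54, 2.44 and 2.19 on the log2 scale, whereas Ccr2, the chemokine receptor of monocytes, and Vcam1 fell, with log2 fold changes of -0.58 and -0.24. The part of such cells in the rise of Lyz2 was not tested.

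Srgn encodes serglycin, the proteoglycan core on which proteases are packed in the granules of neutrophils, mast cells and cytotoxic lymphocytes. Its counts were 7270, 7045, 7070 and 7487 in NA MPs and 5586, 5822, 5652, 5971 and 5788 in WT MPs. The groups were well separated, with means of 7218 ± 205 (SD, n = 4) and 5764 ± 151 (SD, n = 5), a log2 fold change of 0.32 ± 0.0257 (SE) and an edgeR adjusted p of 2.61e-15. All 22 alternatives kept it past the threshold, at 0.30 to 0.34. NA MP replicate 2, the highest NA MP sample for Mpo, Elane, Prtn3 and Ctsg, was the lowest for Srgn. Of 9 tested mast cell and basophil markers, 6 were higher and 2 lower in NA MPs (median 0.92). Their summed counts were 4030 to 4610 in NA MPs and 2930 to 3190 in WT MPs. Mcpt4, which marks connective tissue mast cells, had 1 count in all samples. Gzmb and Cma1, proteases of the same cluster as Ctsg, and Fcer1a, of the IgE receptor, rose by 2.32, 1.96 and 1.40, whereas Il1rl1 and Hdc fell, with -0.39 and -0.24. The part of these cells was not tested.

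Serpinb1a encodes the cytosolic serpin that inhibits elastase, proteinase 3 and cathepsin G. It had counts of 2364, 2452, 2491 and 2443 in NA MPs and 2178, 2182, 2222, 2195 and 2239 in WT MPs. The groups did not overlap, and the log2 fold change was 0.15 ± 0.0289 (SE) with an edgeR adjusted p of 5.36e-05. Serpinb1b and Serpinb1c, its near copies, had 3 counts and 1 count over all samples. Of the other protease inhibitors, 8 of 12 could be tested, 4 were higher and 0 lower in NA MPs. They were Serpina3f, with a log2 fold change of 0.74 on means of 19.8 and 11.6 counts, Slpi, an inhibitor of elastase and cathepsin G, with 0.35, Cst3, a cystatin, with 0.32, and Cstb with 0.29. The call on Serpina3f was lost with DESeq2 (adjusted p 0.117) and without NA MP replicate 2 or WT MP replicate 1 or 5.

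Ms4a3 encodes a membrane protein of granulocyte-monocyte progenitors and promyelocytes. Its counts were 3857, 4134, 4002 and 4221 in NA MPs and 3720, 3793, 3714, 3739 and 3722 in WT MPs. No NA MP sample was as low as any WT MP sample, and the log2 fold change of 0.12 ± 0.0274 (SE) had an edgeR adjusted p of 0.000513. Ms4a2, the β chain of the IgE receptor and a neighbour of Ms4a3, rose far more, from 279 ± 15.3 to 728 ± 90.3.

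Nkg7 encodes a membrane protein of cytotoxic granules that myeloid progenitors also transcribe. Its counts were 2016, 1939, 2057 and 1910 in NA MPs and 1674, 1806, 1821, 1788 and 1714 in WT MPs, again without overlap. The log2 fold change was 0.17 ± 0.0322 (SE) with an edgeR adjusted p of 3.57e-05. Markers of natural killer and T cells were at or near 0. Of 13, only Gzmb had enough counts to be tested, Cd3e, Cd3g and Trac had 0 counts in all 9 samples (3 counts in a sample correspond to 0.37 to 0.54 CPM, for counting error only), and the summed count without a filter was 288 to 402 in NA MPs and 64.5 to 70.4 in WT MPs, of which Gzmb was 304 and 60.2 on average.

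Gstm1, a glutathione transferase of the cytosol that is high in these progenitors, was the exception. Its counts were 3007, 3192, 3188 and 3043 in NA MPs and 3162, 2946, 2992, 3025 and 2938 in WT MPs, with overlap. The log2 fold change of 0.05 ± 0.0289 (SE) had an edgeR adjusted p of 0.238, and its sign turned with the GC and length correction (-0.03). Its family members Gstm2, Gstm4, Gstm5 and Gstm7 also did not pass, with means of 21 to 196 in NA MPs and 16.6 to 175 in WT MPs. Sharing of reads within the family is possible and was not tested. After the scaling was undone, the counts of Gstm1 were whole in 9 of 9 samples, as those of the other granule genes were. The tolerance for this grew with the largest count of a gene. For Mpo it was so wide that any value would have passed, so the check says nothing about Mpo. For Elane, Prtn3 and Ctsg it was also wide, and the check says little about them. Of all values above 0, 97.2% to 97.6% were whole in a sample, so wholeness is not particular to Gstm1.

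**Figure D2:**
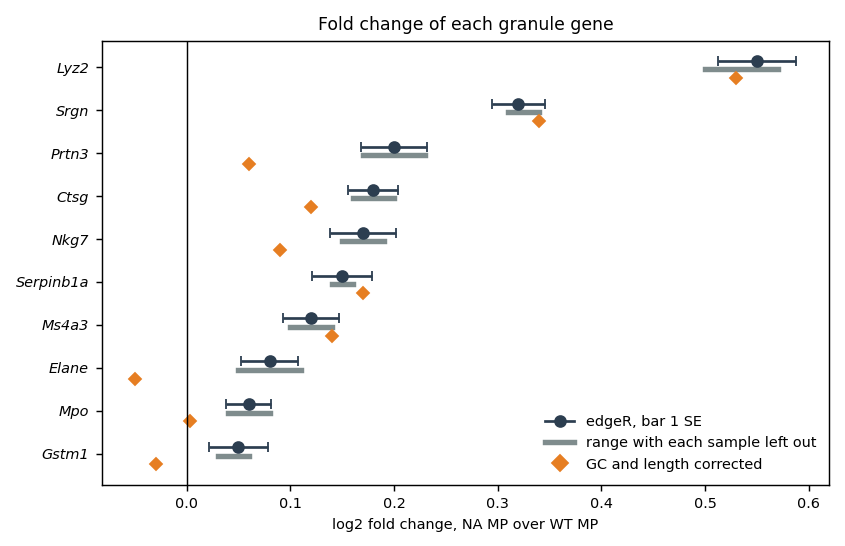
Log2 fold change of NA MPs over WT MPs (horizontal axis) for each granule gene from edgeR with its SE, the range of the values with each sample left out in turn, and the value after correction for GC content and length. Lyz2 and Srgn lie apart from the rest under all 3, while corrected Mpo is close to 0 and corrected Elane and Gstm1 are below it.

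The GC and length correction moved genes of high and of low GC content in opposite directions. The 6 genes with an exonic GC content between 51.4% and 61.2% (Ctsg, Nkg7, Gstm1, Mpo, Elane and Prtn3) each had a lower log2 fold change after it, and the 3 between 43.7% and 46.3% (Ms4a3, Serpinb1a and Srgn) each had a higher value, 0.14, 0.17 and 0.34. Lyz2, at 48.3% GC, moved from 0.55 to 0.53. The part of GC content in the uncorrected values was not tested beyond this. Of the 10 genes, 6 passed as higher with the correction, Ctsg, Ms4a3, Serpinb1a, Lyz2, Nkg7 and Srgn, against 17.7% of all tested genes.

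Levels were compared between genes per exon length, as counts per kilobase scaled to the same sum over all genes in every sample (in the manner of TPM). On this scale Mpo was at 14995 ± 600 (SD, n = 4) in the NA MPs and at 14808 ± 222 (SD, n = 5) in the WT MPs, followed by Elane (10523 and 10264), Ctsg (6116 and 5548) and Prtn3 (5147 and 4608), each further from the next than the spread between samples. Srgn came next, at 1550 ± 47 and 1272 ± 34. In NA MPs, Nkg7 (1021 ± 31), Ms4a3 (1014 ± 41) and Gstm1 (995 ± 29) did not differ from each other beyond their spread. In WT MPs their order was the reverse, with Gstm1 at 991 ± 26, Ms4a3 at 961 ± 9 and Nkg7 at 933 ± 35. There Gstm1 and Nkg7 lay further apart than the SD of either. The last in the order were Lyz2, at 662 ± 39 in NA MPs and 466 ± 20 in WT MPs, and Serpinb1a, at 499 ± 9 and 463 ± 8. These 2 genes were level in WT MPs and apart in NA MPs. The 10 genes together took 2.59% to 2.83% of all counts in NA MPs and 2.52% to 2.60% in WT MPs, so that NA MP replicate 1 fell within the WT MP range.

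A ratio of a gene to Mpo in the same sample does not depend on the scaling between samples. Lyz2 stood at 1.7 counts per 100 counts of Mpo in NA MPs and 1.21 in WT MPs, Srgn at 6.63 and 5.51, Prtn3 at 17.35 and 15.74, and Ctsg at 12.31 and 11.3. In these 4 of the 9 ratios all NA MP samples lay above all WT MP samples, with log2 differences of 0.49, 0.27, 0.14 and 0.12. Each had a two-sided exact permutation p of 0.0159, the smallest that 4 against 5 samples allow, and 0.0357 after adjustment over the 9 ratios. The share of all genes whose ratio to Mpo separates the groups this way is not given here. By normalized counts, all NA MP samples lay above all WT MP samples for 14.2% of tested genes. The ratio of Elane to Mpo was 20.15 against 19.92 per 100, a log2 difference of 0.02 with an exact p of 0.3333. The ratio of Gstm1 was 2.85 against 2.88 per 100 (exact p 0.619). The log2 differences of Serpinb1a, Nkg7 and Ms4a3 were 0.09, 0.11 and 0.06, with exact permutation p values of 0.0571, 0.0714 and 0.1429 after adjustment.

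**Figure D3:**
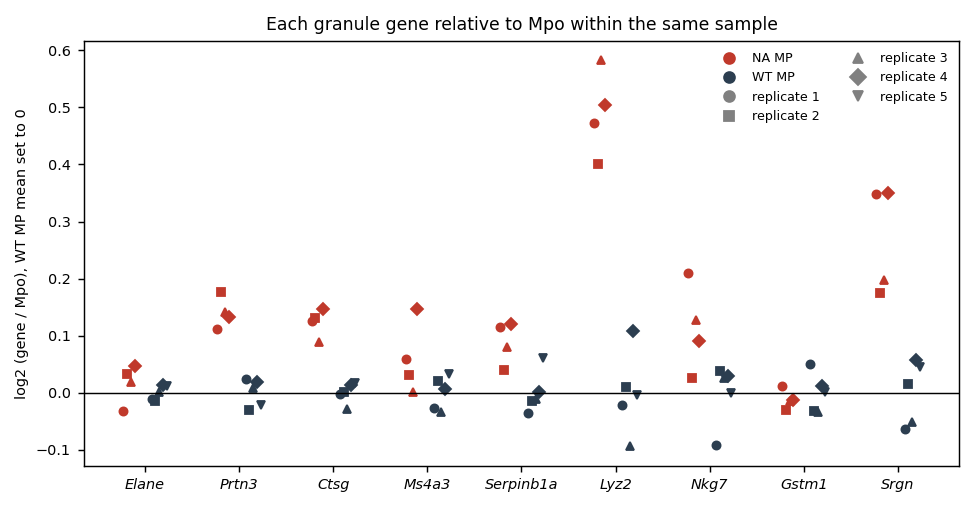
Log2 ratio of each granule gene to Mpo in the same sample (vertical axis, with the mean of the WT MP samples set to 0), NA MPs in red and WT MPs in dark. The red and dark points are apart for Prtn3, Ctsg, Lyz2 and Srgn and mixed for Elane and Gstm1.

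The same samples were often the extremes of their group. NA MP replicate 1 was the lowest NA MP sample for 8 of the 10 genes, all but Nkg7 and Srgn. NA MP replicate 2 was the highest for Mpo, Elane, Prtn3, Ctsg and Gstm1, and WT MP replicate 5 was the lowest WT MP sample for the same 5. Without NA MP replicate 1, 9 of the 10 were called higher, against 17.0% of the genes tested, and in 9 all NA MP samples lay above all WT MP samples, against 16.6%. The tested genes outside the 10 whose pattern was most like that of Mpo, Elane, Prtn3 and Ctsg, by Pearson's r of group-centred log2 CPM over the 9 samples with the mean of the 4, were Prss34 (r = 0.990), Prg2 (0.987), Twf2 (0.986), Nrde2 (0.959) and Bfsp2 (0.959). Prss34 is a protease of basophils and Prg2 the major basic protein of eosinophil granules. The likeness of these 5 genes lies in the differences among the samples of a group. Between the groups, Prg2 fell by 0.99 in NA MPs, Bfsp2 rose by 2.46, and Prss34, Twf2 and Nrde2 did not pass the test. Mpo, Elane, Prtn3 and Ctsg each varied more among NA MPs than among WT MPs (coefficient of variation of Mpo 4.13% and 1.7%), so the NA MP samples weigh most in r. The 5 were the highest of all tested genes outside the 10, and how high r would reach by chance was not tested.

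Primary granules also hold many lysosomal proteins, and most of their genes were higher in NA MPs as well. Of 26 genes for lysosomal hydrolases and membrane proteins, all tested, 21 were higher and 1 was lower in NA MPs, with a median log2 fold change of 0.16. Cd68, a lysosomal membrane protein also used as a macrophage marker, rose by 0.98 (edgeR adjusted p 5.41e-17) and Man2b1, the lysosomal α-mannosidase, by 0.35. Cathepsin D (Ctsd) rose from 2064 ± 62.8 to 2556 ± 65.5. The exception was Arsb, an arylsulfatase, which fell by 0.19 (adjusted p 0.000103).

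Genes that fold, activate, sort and release granule proteins did not move in 1 direction. Of 12, 2 were higher, 4 lower and 6 did not pass, with a median near 0. Unc13d and Stxbp2, which act in granule exocytosis, rose by 0.30 and 0.15. Lyst, whose loss gives the giant granules of Chediak-Higashi disease, fell by 0.44 (adjusted p 7.61e-09), from 837 ± 67.2 to 614 ± 36.7. Ctsc, the dipeptidase that activates the serine proteases, had a log2 fold change of -0.13 (adjusted p 0.0404, and 0.137 with DESeq2), and the chaperones Canx and Hsp90b1 had -0.08 and -0.07. With the GC and length correction the split became 4 higher and 1 lower, and leaving out NA MP replicate 2 or 4 or WT MP replicate 2, 3 or 4 left 2 lower.

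Other promyelocyte and progenitor genes were also mixed, with 5 of 12 higher and 3 lower (5 lower without NA MP replicate 4) and a median of 0.02. Fcnb, a ficolin of primary granules, rose by 0.72, Plac8 by 0.26 and Cst7, cystatin F, which inhibits the activation of granule proteases, by 0.17. Fcgr3, part of the CD16/32 antigen that marks granulocyte-monocyte progenitors, Clec5a and Igsf6 fell, with log2 fold changes of -0.57, -0.46 and -0.21.

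Of 10 transcription regulators known from these promoters, 3 were higher and 2 lower. Lef1 rose by 3.28, from 8.33 ± 2.87 to 81 ± 26. Markers of B cell progenitors rose too (median 3.59), and which cells held the Lef1 RNA was not tested. Spi1, which encodes PU.1, rose by 0.15 and Runx1 by 0.13. With the GC and length correction the value of Spi1 was 0.07 and no longer passed (adjusted p 0.0562). Myb fell by 0.09, from 6114 ± 148 to 5751 ± 141, a change that the GC and length correction removed (-0.00798). Cebpe, a factor of later granulocytes, had -0.19 with an edgeR adjusted p of 0.0202 that was lost with DESeq2 (0.0585) and without NA MP replicate 1 or 4 or WT MP replicate 2. Cebpa had 1354 ± 68.8 and 1400 ± 46.5, Gfi1 969 ± 34.1 and 982 ± 33.8, and Irf8 2194 ± 278 and 2236 ± 81, and none of these passed the test.

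Of 17 paralogs of the 10 genes, 12 could be tested, and 6 were higher and 0 lower, with a median of 0.37. Gzmb, Cma1 and Ms4a2 led, and Ms4a6b, Ms4a6c and Mcpt8 rose by 0.39, 0.40 and 0.29. The peroxidases Epx, of eosinophils, and Lpo, which neighbours Mpo, had log2 fold changes of -0.74 and -0.28 that did not pass (edgeR adjusted p 0.0566 and 0.30), although Epx passed as lower with DESeq2. Of 23 tested neighbours within 50000 bases of a granule gene, 8 were higher and 0 lower, with a median of 0.09.

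Secondary granule genes and other late neutrophil genes, listed together here, are transcribed at a later stage of the neutrophil. Of 11 tested, 6 were higher and 1 was lower, with a median of 0.61 and summed counts of 4410 to 6580 in NA MPs and 3340 to 3990 in WT MPs. Padi4, an enzyme that citrullinates histones, rose by 1.99 and Cd177, the membrane partner of proteinase 3, by 1.70. Camp, the cathelicidin that proteinase 3 cleaves, rose by 0.92 but did not pass edgeR's test against 1.2-fold (adjusted p 0.0511). Mmp8 fell by 1.01 on means of 10.8 and 21.8 counts. Ltf, S100a8, Lcn2 and Chil3 did not pass, with log2 fold changes of 0.43, 0.31, 0.22 and -0.39.

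Markers of other cells that the gate could hold differed between the groups too. Erythroid markers were lower for 12 of 13 tested and higher for 0 (median -0.93), with summed counts of 6340 to 8090 in NA MPs and 11800 to 13100 in WT MPs, and Ermap and Rhd had log2 fold changes of -1.35 and -1.26. B cell progenitor markers were higher for 9 of 9 tested (median 3.59), with sums of 1340 to 2430 and 349 to 388, and Pax5 and Rag1 rose by 3.82 and 3.80. Eosinophil markers were lower for 4 and higher for 2 of 8 (median -0.74), with sums of 969 to 1600 and 1600 to 1990. Of them Prg2 and Prg3 fell, with -0.99 and -0.77, as did Ear1, from 20.8 ± 2.7 to 10.4 ± 3.0 counts, while Ccr3 and Siglecf rose by 2.28 and 0.45. No listed marker of these 3 cell types was at 0 counts. The part of cell composition in the rise of the granule genes was not tested.

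**Figure D4:**
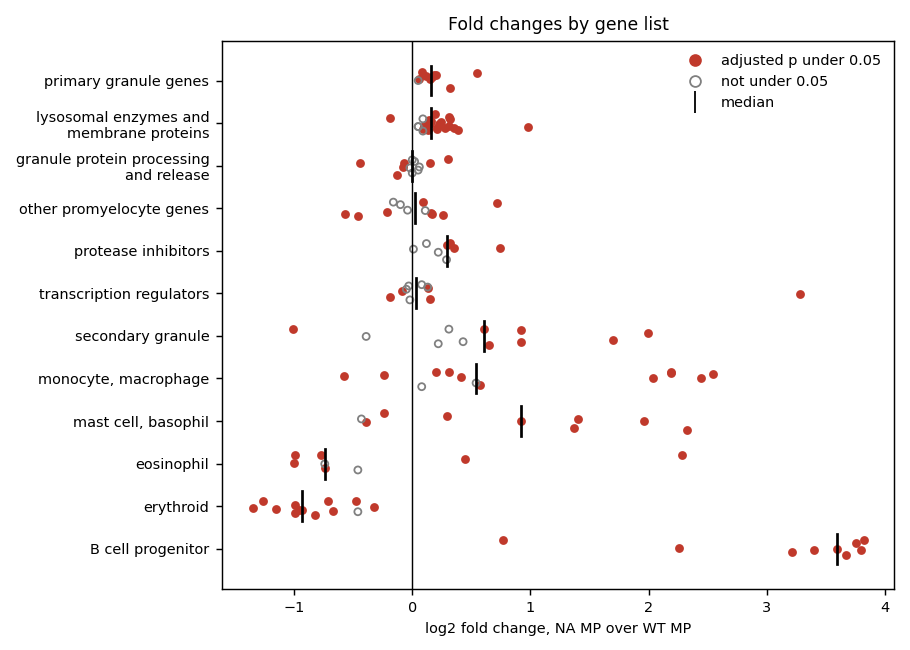
Log2 fold change of NA MPs over WT MPs (horizontal axis) for the tested genes of each list, filled where the edgeR adjusted p was under 0.05, with the median of the list as a bar. The primary granule genes lie between 0.05 and 0.55 and the lysosomal genes between -0.19 and 0.98, both with a median of 0.16, while erythroid and B cell progenitor markers lie far to the left and right.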

How the data were processed

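RNA of 4 NA MP and 5 WT MP samples was sequenced from TruSeq RNA libraries. Per the labels, the authors used bcl2fastq, RSEM and DESeq2 with the mm10 build. Versions, annotation and strand setting are not given in the sources used here. The deposited table is named as raw expected counts, but the values of each sample are whole multiples of a single step (0.82656 to 1.20044), so they had been divided by a size factor before deposit. Step times the DESeq2 size factor of the recovered counts was 0.99935 to 1.0024. Division by the step made 97.2% to 97.6% of values above 0 whole (tolerance 0.01). The expected counts so recovered from the deposited values were rounded and used for the count test.

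In R 4.3.3, edgeR 4.0.16 was run with TMM normalization, filterByExpr (minimum count 10), the robust quasi-likelihood test and Benjamini-Hochberg adjustment over 11953 genes, threshold 0.05. Symbols matched 32916 of 37980 identifiers, and coordinates, exon length and GC content came from GENCODE M21 (GRCm38). The scripts were tested on simulated data. Alternatives were DESeq2 1.42.0, other normalizations and filters, a test against 1.2-fold, GC content and length offsets, a replicate block and each sample left out. limma 3.58.1 on log2 of the deposited value plus 1 (4105 genes called, against 4078 by edgeR) and edgeR on the deposited values were added after seeing the data. Ratios to Mpo were compared by exact permutation of the group labels (126 arrangements).

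The members, lists and tests were chosen with earlier results of these data known. Named are all 10 genes, per list up to 3 largest rises and falls past the threshold, tested paralogs, Nup98, Hoxa10 and Hoxa9, and the 5 genes most alike. Ctsd, Hsp90b1, Cstb, Plppr3 and the regulators, secondary granule genes and markers named beyond this rule were chosen after their values were seen. Some genes within this rule are left out of the text.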

Additional observations from a re-analysis of the deposited data

Results flagged for a closer look

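In 4 of 142 groups of samples tested over the named genes, the highest or lowest sample stood apart from the rest of its group by Dixon's criterion, where chance alone gives about 7.1. Gzmb had a normalized count of 386 in NA MP replicate 1, the highest of the NA MPs. Camp was at 110 in WT MP replicate 1, the lowest WT MP sample. Hdc, the histamine-forming enzyme, was at 1230 and Ear1, an eosinophil ribonuclease, at 16.0 in WT MP replicate 5, both the lowest of the WT MPs. None of the 10 granule genes had such a sample in either group.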

How the results depend on the processing

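The 10 granule genes were refitted under 22 alternatives. Lyz2 and Srgn passed in all 22, Ctsg, Ms4a3, Serpinb1a and Nkg7 in 21, Prtn3 in 19, Mpo and Elane in 9 each and Gstm1 in 0. Tested against a 1.2-fold change, 2 granule genes passed as higher, and 1045 of all genes passed (677 higher, or 5.66%, and 368 lower). Ctsg (0.18), Elane (0.08), Mpo (0.06), Ms4a3 (0.12), Nkg7 (0.17), Prtn3 (0.20) and Serpinb1a (0.15) did not pass it. DESeq2 called 7 of the 10, all as higher, and 3043 of all genes. As higher it called 10.9% of the 15035 genes it tested. Elane lost its call with DESeq2 (0.07), library size only (0.05) and limma (0.07), and Mpo with DESeq2 (0.05), library size only (0.04), limma (0.05) and without the robust option (0.06). The GC content and length correction called 6 of the 10 as higher, against 17.7% of all tested genes. It gave Mpo 0.00285, Elane -0.05, Prtn3 0.06 and Gstm1 -0.03. The replicate numbers did not pair the samples (correlation of same-numbered deviations -0.019 to 0.053). With the replicate block, 7 of the 10 were called, all as higher, and Elane (0.07) and Mpo (0.05) were not. It called 3741 of all genes, and 16.6% of all tested genes as higher. With the replicate block and the GC correction together the values were Mpo -0.00335, Elane -0.04, Prtn3 0.04 and Gstm1 -0.03. The cause of these shifts was not tested.

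With each sample left out in turn, 7 to 9 of the 10 passed as higher, against 16.0% to 17.4% of all tested genes, and 7 to 9 did not overlap, against 15.2% to 16.6% with all NA MP samples above. Mpo ranged from 0.04 to 0.08 and Elane from 0.05 to 0.11. The log2 differences of the ratios to Mpo ranged from 0.13 to 0.15 for Prtn3, 0.11 to 0.13 for Ctsg, 0.46 to 0.52 for Lyz2 and 0.24 to 0.30 for Srgn. With 8 samples the exact permutation test allows no p as small as with all samples. At that limit the adjusted p of these 4 did not pass the threshold (0.0514 to 0.0804), so this loss does not measure fragility. The ratio of Gstm1 to Mpo ranged from -0.02 to 0.000907, and its sign turned without WT MP replicate 1. Among the lists, leaving out NA MP replicate 3 left 2 secondary granule genes lower in place of 1, and NA MP replicate 2 left 1 paralog lower in place of 0. Depth limits these values to different degrees. The chi-square of counts within a group per degree of freedom was at most 1, the level of counting error alone, for Serpinb1a in both groups (0.977 and 0.327) and Ms4a3 in WT MPs (0.304), and reached 169 for Mpo in NA MPs.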
